A study of Mus musculus with 16 samples.

Results

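Interferon signalling genes, 9 in number, were followed in murine gingival fibroblasts (mGF). They were the receptor chains Ifnar2 and Ifngr1, the transcription factor Stat2 and the interferon regulatory factors Irf1, Irf2, Irf3, Irf7, Irf8 and Irf9. The members were chosen by gene symbol, as 9 of the 56941 genes in the deposited count table, and 8 of them carried enough counts to be tested. Irf8 was not tested. The mGF were primary connective tissue cells grown from gum explants around the upper second molar of wild-type C57Bl6 mice aged 3 to 6 months, and they were used between passages 2 and 8. Bulk RNA was sequenced after 24 h in 4 conditions of 4 libraries each. The conditions were BSA (control, the albumin vehicle), IL-1β at 1 ng/mL, palmitate at 200 µM complexed to BSA, and palmitate + IL-1β with each agent at its single dose. All 4 conditions therefore contained BSA and none carried an altered allele. The libraries are called here by the replicate numbers of their labels, 1 to 4 for BSA, 5 to 8 for IL-1β, 9 to 12 for palmitate and 13 to 16 for palmitate + IL-1β. The sources used here do not say whether libraries of a condition came from separate cultures or animals, so p-values measure the spread between these libraries, which may be technical.

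Interferons are secreted proteins that cells release on sensing microbes or damage. Type I interferons bind Ifnar1 with Ifnar2, and interferon-γ binds Ifngr1 with Ifngr2. The receptors switch on Janus kinases, which phosphorylate Stat proteins. Stat2 and Irf9 are subunits of the complex ISGF3, which binds the interferon-stimulated response element (ISRE), whereas interferon-γ acts through the γ-activated site (GAS). Irf3 and Irf7 are activated by phosphorylation downstream of nucleic acid and lipopolysaccharide sensors and turn on the interferon genes. Irf1 activates, and Irf2 mostly represses, genes with ISRE-like elements, and Irf8 belongs chiefly to myeloid and B cells. Fibroblasts carry both receptors and answer both kinds of interferon.

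The upstream sequences are shown so that the starts of the members can be read for matches to the response elements of these pathways. Whether a match goes with a response to either agent was not tested. The 250 bases before each RefSeq start were searched on both strands for the ISRE (GAAANNGAAA), the GAS (TTCNNNGAA) and the NF-κB consensus. The RefSeq sequences, given on GRCm38.p6, were placed on GRCm39 by exact match, and all 9 genes were found. The GAS and ISRE matches of Irf2 lie next to each other without overlapping. Capitals mark each match, and all lines read 5′ to 3′ on the plus strand, which is the strand of these genes. The long lines stop at the first annotated exon of their own gene, and the Irf1 line lies within annotated exons of other genes. The NF-κB matches of Irf1 and Irf2 lie before the RefSeq start but inside an annotated exon of the gene itself. The annotated Irf2 gene begins at 47192222, before its whole window.
Irf1 upstream with a GAS, chr11:53660591-53660811 (GRCm39): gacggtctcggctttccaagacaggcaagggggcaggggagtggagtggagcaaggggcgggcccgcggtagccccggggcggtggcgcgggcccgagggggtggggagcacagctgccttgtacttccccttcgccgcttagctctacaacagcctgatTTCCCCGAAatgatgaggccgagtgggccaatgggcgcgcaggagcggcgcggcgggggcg
Irf1 NF-κB consensus, chr11:53660811-53660840: gtggccgagtccgggccGGGGAATCCCgct
Irf2 ISRE, chr8:47192530-47192559: tggggaagtGAAAATGAAAttgacttttcc
Irf2 GAS, chr8:47192546-47192575: aaattgacttTTCCGAGAAatgatgaaagc
Irf2 NF-κB consensus, chr8:47192750-47192779: gggcgggggtgggGGGGATTTCCagcctcg
Stat2 upstream with an ISRE on the minus strand, chr10:128106117-128106351: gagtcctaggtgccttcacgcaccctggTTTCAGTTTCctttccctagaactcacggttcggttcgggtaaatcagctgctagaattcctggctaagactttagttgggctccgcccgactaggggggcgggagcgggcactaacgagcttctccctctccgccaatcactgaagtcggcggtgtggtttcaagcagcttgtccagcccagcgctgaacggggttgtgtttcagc
Ifnar2 GAS, chr16:91169447-91169476: tgccaaggccTTCCTGGAAgaagagagtac

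The ISRE was found at 2 of the 9 members (Irf2 and Stat2), the GAS at 4 (Irf1, Irf2, Ifnar2 and Irf8) and the NF-κB consensus at 2 (Irf1 and Irf2). RefSeq lists 12 starts for the 9 genes (2 each for Irf1, Irf8 and Irf9), so in units of promoters the ISRE was at 2 of 12, the GAS at 4 of 12 and the NF-κB consensus at 2 of 12. Of all 32851 RefSeq promoters of the same length, 2.98% held the ISRE, 7.02% the GAS and 7.25% the NF-κB consensus. Irf1 and Irf2 carried both a GAS and an NF-κB consensus. Ifngr1, Irf3, Irf7 and Irf9 had no match in this window, which says only that these letters were not there. For Irf9 both windows lie after the start of the annotated gene, and the first lies wholly in its own exons. No sequence upstream of the annotated Irf9 gene was therefore searched. A match is a description of the sequence, and binding was not measured.

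Gene counts per library lay between 21234789 and 92752515, and the highest total belonged to palmitate replicate 10, with at most 35329711 in any other library. TMM factors lay between 0.970 and 1.04. Levels are given as CPM, counts scaled to the TMM-adjusted size of each library, and 3 counts, the floor used here, came to 0.0331 to 0.146 CPM. All 12 fibroblast markers were tested, and they summed to between 39700 and 46200 CPM. Macrophage and myeloid markers (3 of 12 tested) summed to 3.2 to 4.97 CPM in BSA and 3.3 to 4.35 CPM in palmitate, and Adgre1, Aif1 and Tyrobp had at most 3 counts in every library. Lymphocyte markers (0 of 8 tested) reached at most 0.222 CPM. Epithelial markers (2 of 8 tested) summed to 4.04 to 4.88 CPM in BSA and 2.48 to 2.96 CPM in palmitate. Endothelial markers (3 of 6 tested) summed to 1.78 to 2.29 and 1.45 to 2.02 CPM. Higher sums came from mural and muscle markers (5 of 6 tested), 179 to 198 CPM in BSA and 171 to 181 CPM in palmitate. Schwann and neural markers (4 of 5 tested) summed to 623 to 691 and 599 to 634 CPM. The part of these other cell types in the results was not tested. Differences were tested by quasi-likelihood in edgeR, with the 16 libraries fitted together, and a gene was called at a Benjamini-Hochberg adjusted p under 0.05 over 16306 genes.

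Palmitate raised 7 of the 8 tested genes, and Irf3 was the exception. Across all genes tested, 19.8% were called higher in palmitate than in BSA. The rise was over 2-fold for Irf7, Stat2, Irf1 and Irf9, 4 genes, against 3.58% of all genes. IL-1β raised 3 of the 8, Irf1, Ifngr1 and Irf2, where 10.1% of all genes were called higher. Palmitate + IL-1β raised the same 7 genes as palmitate, against a background of 24.8%. The median log2 fold change of the 8 genes was 0.936 with palmitate, 0.208 with IL-1β and 1.04 with palmitate + IL-1β, while the medians over all genes were -0.00303, -0.00486 and 0.0017. All 3 comparisons share the BSA libraries, so they are given side by side and not as independent results. In bulk RNA, fewer cells of a type and less RNA per cell cannot be told apart.

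**Figure D1:**
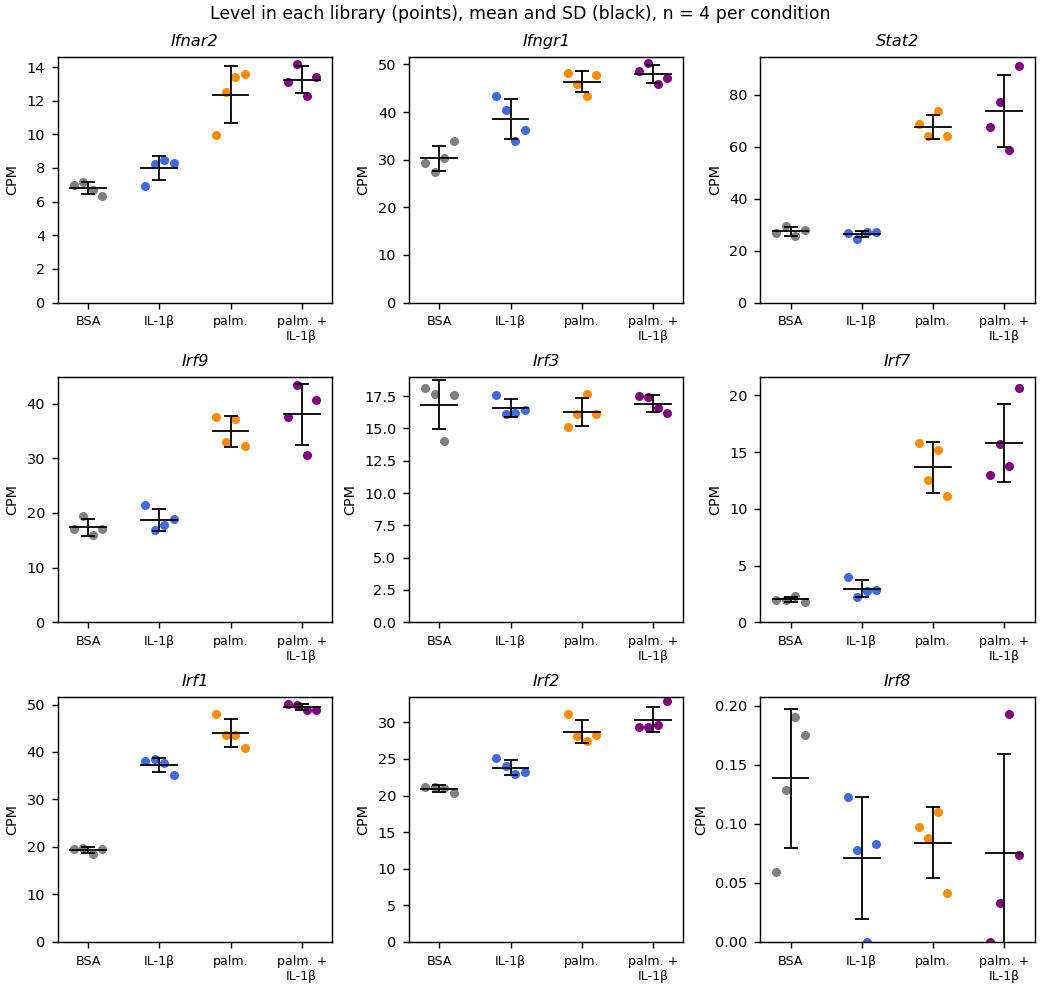
Level of each of the 9 genes in CPM (vertical axes, linear and starting at 0) in the 4 conditions (horizontal axes), with a point per library and the mean and SD in black. Palmitate and palmitate + IL-1β libraries lie above all BSA libraries for 7 genes, Irf3 stays between 14.0 and 18.1 CPM, the IL-1β libraries of Irf1 (35.2 to 38.5 CPM) lie just below its palmitate libraries, and Irf8 stays at or below 0.193 CPM.

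Ifnar2, the signalling chain of the type I interferon receptor, rose with palmitate. Its gene lies at chr16:91169618-91202723 (GRCm39, plus strand). Its levels were 6.98, 7.17, 6.68 and 6.36 CPM in BSA and 6.92, 8.24, 8.45 and 8.29 CPM with IL-1β. With palmitate they were 9.96, 12.5, 13.4 and 13.6 CPM, and with palmitate + IL-1β 13.1, 14.2, 12.3 and 13.4 CPM. Every palmitate library stood above every BSA and IL-1β library, although palmitate replicate 9 was low among its replicates, and IL-1β replicate 5 sat within the BSA range. The mean rose from 6.8 ± 0.356 to 12.4 ± 1.69 CPM (SD, n = 4) with palmitate, a log2 fold change of 0.87 (SE 0.09, edgeR adjusted p = 2.1e-09). With IL-1β alone the log2 difference was 0.23 (SE 0.1) and missed the threshold (edgeR adjusted p = 0.108). Of the exon length of Ifnar2, 19.96% is shared on the same strand with Gm21970, which had 0 counts in every library, and reads there may have been left out as ambiguous.

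Ifngr1, the ligand-binding chain of the interferon-γ receptor (chr10:19467697-19485977, plus strand), rose with either agent. Its levels were 29.4, 27.4, 30.3 and 33.9 CPM in BSA, and 43.4, 40.5, 34.0 and 36.2 CPM with IL-1β. With palmitate they were 48.2, 46.0, 43.4 and 47.8 CPM, and 48.6, 50.4, 45.9 and 47.2 CPM with palmitate + IL-1β. The IL-1β libraries lay between the other groups, and their lowest stood next to the highest BSA library. The log2 fold change was 0.35 (SE 0.07, edgeR adjusted p = 0.00043) with IL-1β and 0.61 (SE 0.07, edgeR adjusted p = 9.4e-09) with palmitate. The mean rose from 30.3 ± 2.72 CPM in BSA to 38.5 ± 4.21 CPM (IL-1β) and 46.4 ± 2.2 CPM (palmitate), each as SD with n = 4. Palmitate + IL-1β, at 48.0 ± 1.93 CPM, differed from palmitate by a log2 of 0.05, with a 95% interval from -0.08 to 0.18.

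Stat2, the Stat protein particular to ISGF3 (chr10:128106352-128128735, plus strand), rose with palmitate and not with IL-1β at the threshold used. BSA libraries held 26.9, 29.3, 25.4 and 28.0 CPM and IL-1β libraries 26.8, 24.6, 27.0 and 27.3 CPM. Palmitate libraries held 68.7, 64.2, 73.6 and 63.9 CPM, and palmitate + IL-1β libraries 67.4, 77, 58.8 and 91.1 CPM. BSA and IL-1β libraries overlapped, every library with palmitate stood far above it, and the spread was widest in palmitate + IL-1β, where replicate 16 was high and replicate 15 low. Palmitate raised the mean from 27.4 ± 1.62 to 67.6 ± 4.57 CPM (SD, n = 4), 2.46-fold (log2 1.3, SE 0.11, edgeR adjusted p = 1.3e-07). The IL-1β difference was -0.05 on the log2 scale (95% interval -0.3 to 0.19, edgeR adjusted p = 0.819).

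Irf9, the DNA-binding partner of Stat2 in ISGF3 (chr14:55841028-55847812, plus strand), followed Stat2. BSA libraries held 17.0, 19.5, 15.9 and 17.1 CPM and IL-1β libraries 21.4, 16.9, 17.8 and 18.8 CPM. Palmitate libraries held 37.6, 32.9, 37.2 and 32.2 CPM, and palmitate + IL-1β libraries 37.5, 43.4, 30.6 and 40.6 CPM. Palmitate separated the libraries into a low and a high set with no overlap, and replicate 15 was again the lowest of its group. The rise with palmitate was 2.0-fold (log2 1.0, SE 0.1, edgeR adjusted p = 1.3e-07), from 17.4 ± 1.51 to 35.0 ± 2.8 CPM (SD, n = 4). With IL-1β the log2 difference was 0.11 (95% interval -0.11 to 0.33, edgeR adjusted p = 0.575). Irf9 shares 4.86% of its exon length on the same strand with Rnf31, where reads could be assigned to neither gene.

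Irf3, a constitutive factor that is activated by phosphorylation after sensing (chr7:44647033-44652272, plus strand), passed no test. BSA libraries held 18.1, 17.7, 14.0 and 17.6 CPM and IL-1β libraries 17.6, 16.1, 16.2 and 16.4 CPM. Palmitate libraries held 15.1, 16.1, 17.7 and 16.1 CPM, and palmitate + IL-1β libraries 17.5, 17.4, 16.6 and 16.2 CPM. All 4 groups overlapped, and their means lay between 16.2 and 16.9 CPM. The difference of palmitate from BSA was -0.06 on the log2 scale, with a 95% interval from -0.2 to 0.09 (edgeR adjusted p = 0.58). The interval for palmitate + IL-1β against BSA ran from -0.14 to 0.15 around 0.01, and the sign of that value changed with the normalization. Antisense genes share exon length with Irf3, Bcl2l12 at 3.53% (65 to 322 counts per library) and Scaf1 at 0.63% (3192 to 14246). The labels and the methods describe different library kits, and the share of antisense reads in the Irf3 counts was not tested.

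Irf7, the factor that amplifies the type I interferon response and is itself an ISGF3 target (chr7:140842619-140846398, minus strand), showed the largest rise of the 8 genes. BSA libraries held 1.98, 1.97, 2.29 and 1.82 CPM, from 52 to 67 counts, and IL-1β libraries 4.01, 2.23, 2.72 and 2.82 CPM. Palmitate libraries held 15.8, 12.5, 15.2 and 11.1 CPM, and palmitate + IL-1β libraries 13.0, 15.7, 13.8 and 20.7 CPM. The lowest palmitate library was well above the highest IL-1β library, and replicate 16 was the highest of all. Palmitate raised Irf7 from 2.02 ± 0.198 to 13.7 ± 2.24 CPM (SD, n = 4), 6.74-fold with a 95% interval from 5.12 to 8.86 (log2 2.75, SE 0.19, edgeR adjusted p = 1.5e-09). With IL-1β the mean was 2.94 ± 0.757 CPM, the log2 difference was 0.54 (95% interval 0.05 to 1.03), and the adjusted p was 0.137 by edgeR over all 16 libraries. That IL-1β difference passed with DESeq2 (adjusted p = 0.0208), and when palmitate + IL-1β replicate 16 was left out of the edgeR fit (adjusted p = 0.0343), so its call depends on the fit. Of the exon length of Irf7, 1.67% is shared with the antisense gene Phrf1, which had 1852 to 8601 counts per library. The share of antisense reads in the Irf7 counts was not tested.

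Irf1, an inducible activator downstream of interferon-γ and NF-κB (chr11:53660812-53669200, plus strand), rose with each agent. BSA libraries held 19.5, 19.8, 18.5 and 19.6 CPM and IL-1β libraries 38.1, 38.5, 37.6 and 35.2 CPM. Palmitate libraries held 47.9, 43.6, 43.5 and 40.9 CPM, and palmitate + IL-1β libraries 50.1, 49.8, 48.9 and 48.8 CPM. No 2 groups overlapped, and the order was BSA, IL-1β, palmitate and palmitate + IL-1β. IL-1β raised the mean from 19.3 ± 0.598 to 37.3 ± 1.46 CPM (SD, n = 4), 1.93-fold (log2 0.95, SE 0.05, edgeR adjusted p = 5.6e-15), and its p-value was number 36 among all genes in that comparison. Palmitate raised it to 44.0 ± 2.93 CPM, 2.27-fold (log2 1.18, SE 0.05, edgeR adjusted p = 2.2e-18). Antisense genes cover parts of its exons. Gm12216 covers 13.23% (2 to 58 counts per library) and Gm17334 31.36% (3 to 17), where Irf1 itself had 484 to 3959 counts. Gm74496, whose counts were not analysed here, covers 8.66%. The counting was by strand, and these antisense genes had few counts beside Irf1. The labels and the methods describe different library kits, and the share of antisense reads in the Irf1 counts was not tested.

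Irf2, which binds the same elements as Irf1 and mostly represses them (chr8:47192222-47300501, plus strand), rose less. BSA libraries held 21.2, 21.2, 21.1 and 20.3 CPM and IL-1β libraries 25.1, 24.1, 22.9 and 23.2 CPM. Palmitate libraries held 31.1, 28.2, 27.4 and 28.3 CPM, and palmitate + IL-1β libraries 29.4, 29.4, 29.7 and 32.9 CPM. IL-1β libraries stood just above all BSA libraries and below all palmitate libraries. Palmitate raised Irf2 1.37-fold (log2 0.45, SE 0.06, edgeR adjusted p = 5.3e-08), from 20.9 ± 0.395 to 28.8 ± 1.6 CPM (SD, n = 4). The IL-1β rise of 1.14-fold to 23.8 ± 0.998 CPM was called (log2 0.18, SE 0.06, edgeR adjusted p = 0.0248). It missed the threshold with upper-quartile normalization (edgeR adjusted p = 0.0962) and without any of BSA replicates 1, 2 and 4 or IL-1β replicates 5 and 6 (edgeR adjusted p up to 0.0812). The antisense gene Gm16675 (30 to 165 counts per library) shares 1.0% of the exon length of Irf2, with the same limit as for Irf1.

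Irf8, a factor of myeloid and B cells (chr8:121463096-121485659, plus strand), was at or near the counting floor. The counts were 2, 4, 5 and 5 in BSA, 3, 2, 0 and 2 with IL-1β, 2, 8, 3 and 1 with palmitate, and 0, 1, 6 and 2 with palmitate + IL-1β. The 8 counts came from the deepest library, and the groups overlapped throughout. In the alternative fit with no filter on low counts Irf8 entered and was called in no contrast. No fold change is given, since the levels are at or near the floor, and a difference was not detectable at this depth. Of the 12 macrophage and myeloid markers, Adgre1, Aif1 and Tyrobp had at most 3 counts in every library. However, 3 others passed the count filter, and the 12 summed to 3.2 to 4.97 CPM in BSA.

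**Figure D2:**
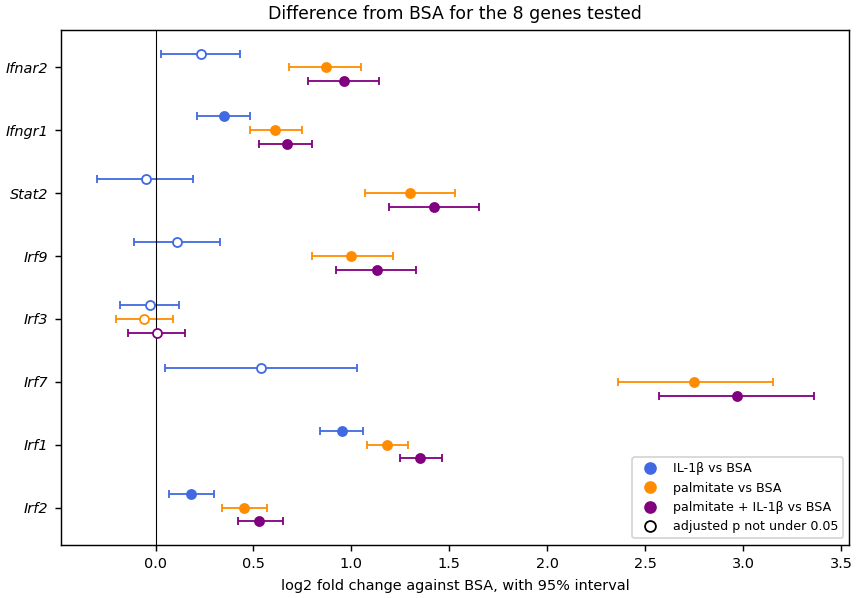
Fitted log2 fold change against BSA (horizontal axis) of the 8 tested genes (vertical axis), with 95% intervals from edgeR, for IL-1β, palmitate and palmitate + IL-1β; open points missed an adjusted p under 0.05. Palmitate and palmitate + IL-1β sit next to each other for every gene, IL-1β lies near 0 for Stat2, Irf9 and Irf3, and Irf1 has the highest IL-1β value, 0.95.

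Adding IL-1β to palmitate moved few of these genes past the threshold. Of the 8, Irf1 alone was called higher in palmitate + IL-1β than in palmitate, by 1.13-fold (log2 0.17, SE 0.05, edgeR adjusted p = 0.0199), where 5.71% of all genes were called higher. This call is fragile. It was lost without palmitate replicate 10, 11 or 12 or palmitate + IL-1β replicate 13 or 14 (edgeR adjusted p up to 0.1), and with no filter on low counts (edgeR adjusted p = 0.101). The other log2 differences were between 0.05 and 0.21, and the widest interval was that of Irf7, from -0.09 to 0.52. A missed threshold does not show that these levels were equal.

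Adding palmitate to IL-1β raised 7 of the 8 genes, where 18.9% of all genes were called higher. Irf7 rose by a log2 of 2.42 (SE 0.18, edgeR adjusted p = 5.8e-09), Stat2 by 1.47 (SE 0.11, edgeR adjusted p = 4.4e-08) and Irf9 by 1.02 (SE 0.1, edgeR adjusted p = 1.3e-07). The rises of Ifnar2 (0.73), Irf1 (0.41), Irf2 (0.35) and Ifngr1 (0.32) were smaller. Palmitate alone also stood above IL-1β alone in 7 of the 8 genes (background 16.5%), and the gap was 2.21 for Irf7 and 0.23 for Irf1 on the log2 scale. In every call of the fit of 16 libraries named so far, against BSA or between treatments, the 4 libraries of the higher group lay above all 4 of the other, where the exact two-sided permutation test reaches its limit of 0.0286. Over all genes, the share whose libraries separated in that direction was 19.5% for palmitate, 11.1% for IL-1β and 22.2% for palmitate + IL-1β against BSA, 16.5% for palmitate against IL-1β, and 16.7% and 9.16% for palmitate + IL-1β against IL-1β and against palmitate.

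Whether palmitate acted differently in the presence of IL-1β was tested as an interaction, the palmitate effect with IL-1β minus that without. Irf1 alone was called, at -0.78 on the log2 scale (SE 0.07, edgeR adjusted p = 3.6e-09). In this contrast 1.83% of all genes were called lower and 0.159% higher. Palmitate raised Irf1 2.27-fold without IL-1β and 1.32-fold with it. In CPM, the separate rises over BSA were 18.0 with IL-1β and 24.7 with palmitate, and the rise with both was 30.1. The sum of the separate rises on the BSA level would be 62.0 CPM, against 49.4 ± 0.647 CPM measured. The interaction of Ifngr1 was -0.29 (SE 0.09, edgeR adjusted p = 0.129), and it was called without BSA replicate 4 (edgeR adjusted p = 0.0331) or IL-1β replicate 7 (edgeR adjusted p = 0.0393). Those of Stat2 (0.17), Irf9 (0.02) and Irf7 (-0.33) missed the threshold, and the 95% interval of Irf7 ran from -0.91 to 0.25.

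Compared per kilobase of exon, the order of the genes changed between conditions. The exon length joins the exons of all annotated transcripts. For Irf7 this is 1 merged exon of 3780 bases, the whole gene. Which transcripts the cells made was not tested, so the order between genes holds for these lengths only. In BSA, Ifngr1 was highest at 10.6 CPM per kb, followed by Irf3 (4.84), Stat2 (4.34), Irf1 (4.13), Irf9 (2.99), Irf2 (1.87), Ifnar2 (1.82), Irf7 (0.533) and Irf8 (0.0142). The library ranges of Irf3 and Stat2, of Stat2 and Irf1, and of Irf2 and Ifnar2 overlapped, so the order of these neighbours is one of means. Whether they differed within libraries was not tested. With IL-1β, Irf1 stood second at 7.98 CPM per kb, above Irf3 at 4.76 and Stat2 at 4.19. With palmitate, Stat2 (10.7) and Irf1 (9.4) followed Ifngr1 (16.3) with overlapping ranges, and Irf3 (4.66) fell behind Irf9 (6.03). Irf7 (3.62) passed Ifnar2 (3.31) and Irf2 (2.57), with overlap between neighbours.

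Ratios between members of like role were taken after the values were seen. Their sizes depend on the same exon lengths, but their changes between conditions do not. The ratio of Irf1 to Irf2 per kilobase, activator to repressor, was 2.21 ± 0.087 in BSA, 3.75 ± 0.151 with IL-1β, 3.65 ± 0.143 with palmitate and 3.9 ± 0.244 with palmitate + IL-1β (SD, n = 4). Every treated library lay above the BSA libraries (exact two-sided permutation p = 0.0286, which 4 against 4 cannot go below), and palmitate and IL-1β overlapped (exact p = 0.429). The ratio of Stat2 to Irf9 was 1.45 ± 0.0518 in BSA, 1.31 ± 0.109 with IL-1β (exact p = 0.0571) and 1.78 ± 0.0672 with palmitate (exact p = 0.0286). With palmitate + IL-1β it was 1.78 ± 0.199. The ratio of Irf7, the inducible sensor-activated factor, to Irf3, the constitutive one, went from 0.112 ± 0.0259 in BSA to 0.163 ± 0.0348 with IL-1β (exact p = 0.0571) and 0.779 ± 0.141 with palmitate (exact p = 0.0286).

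**Figure D3:**
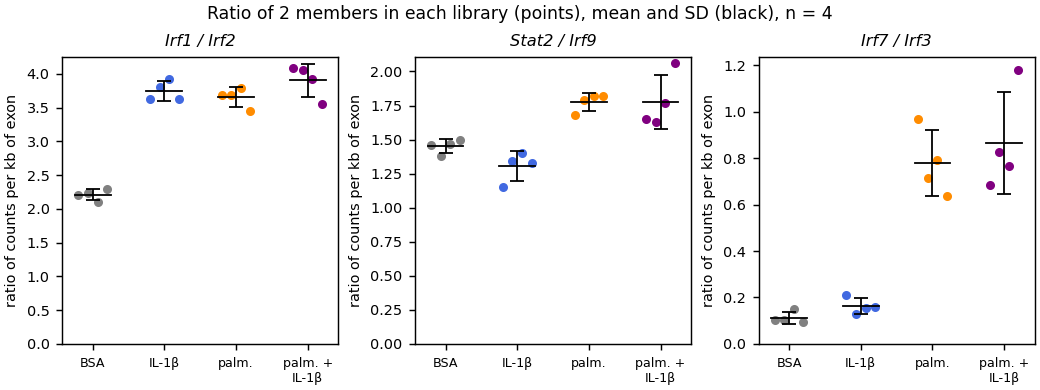
Ratio of counts per kilobase of exon (vertical axes, starting at 0) for Irf1 to Irf2, Stat2 to Irf9 and Irf7 to Irf3 in the 4 conditions, with a point per library and the mean and SD in black. Irf1 to Irf2 is raised by each agent to between 3.45 and 4.08, whereas Irf7 to Irf3 stays at or below 0.21 with IL-1β and reaches at least 0.638 with palmitate.

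The members differed in how they varied together over the 16 libraries, which share 4 conditions, so these correlations describe the pattern and carry no test. Stat2, Irf9 and Irf7 formed the closest group, with Pearson r of log2 CPM of 0.981 for Stat2 and Irf9, 0.977 for Irf9 and Irf7, and 0.973 for Stat2 and Irf7. After each condition's mean was subtracted, r was 0.763, 0.618 and 0.587 for those pairs. It was 0.625 for Irf7 and Irf2, whose r before subtraction was 0.963. The lowest values after subtraction were those of Ifnar2 with Irf1 (-0.59) and with Irf2 (-0.575). Before subtraction, Irf1 correlated at 0.732 with Stat2, at 0.903 with Irf2 and at 0.919 with Ifngr1. Irf3 lay between -0.104 and 0.063 with every other member, also before subtraction.

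**Figure D4:**
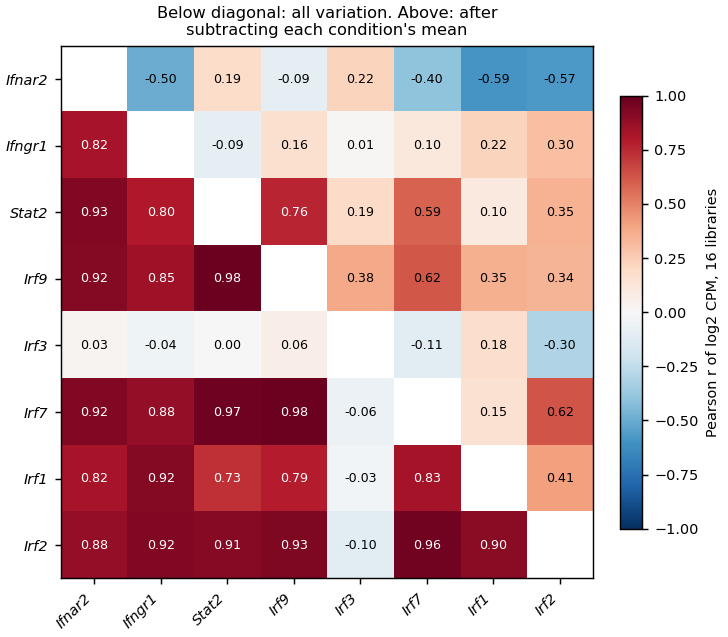
Pearson r of log2 CPM between the 8 tested genes over 16 libraries, below the diagonal for all variation and above it after subtracting each condition's mean. Stat2, Irf9 and Irf7 form the block with the highest values below the diagonal, above it Stat2 and Irf9 have the highest value, 0.763, and Irf7 with Irf2 the next, 0.625, and the row of Irf3 is near 0 below it.

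For each member, the 3 genes most like it over the 16 libraries were found among genes with an average log2 CPM of at least 1. Stat2 was most like Trim30d (r = 0.993), Mndal (0.988) and Ifi211 (0.988). Irf9 was most like Nlrc5 (0.985), an activator of class I antigen presentation genes, Samd9l (0.984) and Ifi44 (0.982). Irf7 was most like the interferon-inducible GTPases Irgm1 (0.995) and Iigp1 (0.993) and the peptide transporter Tap1 (0.993). Irf1 had other companions, the NF-κB inhibitor Tnfaip3 (0.993), the chemokine Cxcl1 (0.992) and the peptidoglycan sensor Nod2 (0.99). After each condition's mean was subtracted, r with Irf1 was 0.217 for Tnfaip3, 0.5 for Cxcl1 and -0.043 for Nod2. The value was 0.87 for Irf7 with Irgm1 and 0.867 for Stat2 with Trim30d. Within conditions the SD was 1.31% to 6.66% of the mean for Irf1 and 9.8% to 25.7% for Irf7. Irf1 thus had less variation left to correlate, and these values do not compare how closely the genes are tied. Irf2 was most like Ppp1r10 (0.981), Dkc1 (0.979) and Parp14 (0.977), Ifngr1 like Ppp4r2 (0.973), Mt2 (0.968) and Fosl1 (0.965), and Ifnar2 like Dusp1, Lpin3 and Pfkfb3 (0.965 each). The best match of Irf3 reached 0.771 (Gm43362).

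The genes around the members were counted from lists of the interferon pathway. Of 21 interferon ligand genes none passed the count filter. Their summed count was 0 to 7 per library, with the highest single count on Ifnz, so no change of the ligands was detectable at this depth. The counts that follow stand against 19.8% of all genes called higher with palmitate and 10.1% with IL-1β, and 17.5% and 4.97% called lower, and a count near those shares is no result about a list. Of 6 tested other receptor chains and Janus kinases, 5 rose with palmitate and 3 with IL-1β, and the median log2 fold changes were 0.548 and 0.124. Jak2, a kinase of the interferon-γ receptor, went from 65.2 ± 2.19 to 136.0 ± 4.19 CPM (SD, n = 4) with palmitate (log2 1.06, SE 0.04, edgeR adjusted p = 1.4e-19). Tyk2, a kinase of the type I receptor, rose by 0.8 (SE 0.05, edgeR adjusted p = 6.3e-14), and Ifngr2, the partner chain of Ifngr1, by 0.72 with palmitate and 0.39 with IL-1β. The interaction was called lower for 2 of the 6, Ifngr2 (-0.36, SE 0.07, edgeR adjusted p = 0.00377) and Tyk2 (-0.28, SE 0.07, edgeR adjusted p = 0.0384). Over all genes, 1.83% had an interaction called lower and 0.159% one called higher, so the direction alone is no result about this list.

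Of 6 tested other IRF and STAT genes, 3 rose with palmitate (background 19.8%) and 1 with IL-1β (background 10.1%), with median log2 fold changes of 0.185 and 0.0254. Stat3, which transmits interleukin-6 family signals, rose by 0.32 with palmitate (SE 0.04, edgeR adjusted p = 2.4e-08), and Stat5a, which transmits growth hormone and cytokine signals, by 0.28 (SE 0.06, edgeR adjusted p = 0.00057). Irf5, a factor downstream of Toll-like receptors, rose by 0.33 with palmitate (edgeR adjusted p = 0.0076) and was the gene that rose with IL-1β, by 0.5 (edgeR adjusted p = 0.00034).

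Sensing genes upstream of Irf3 and Irf7 rose in 11 of 14 tested cases with palmitate (background 19.8%) and in 8 with IL-1β (background 10.1%), with medians of 0.711 and 0.23. Their palmitate log2 fold changes ran from -0.0565 to 6.6, and the genes named are those with the smallest p, not the largest change. Traf3, an adaptor of the kinases that activate these factors, rose by 0.83 (SE 0.04, edgeR adjusted p = 1.6e-16) with palmitate and 0.66 (SE 0.04, edgeR adjusted p = 3.5e-13) with IL-1β. Trim25, a ubiquitin ligase in RNA sensing, rose by 1.28 and 0.22. Of 11 tested negative regulators, 6 rose and 2 fell with palmitate (backgrounds 19.8% and 17.5%), and 2 rose and 1 fell with IL-1β (backgrounds 10.1% and 4.97%). The number that fell with palmitate was near the share over all genes. The palmitate log2 fold changes of the negative regulators ran from -0.299 to 3.88, and here too the genes were named by smallest p. Socs3, an inhibitor of cytokine receptor signalling, rose from 4.71 ± 0.445 to 20.9 ± 2.27 CPM (SD, n = 4) with palmitate (log2 2.16, SE 0.1, edgeR adjusted p = 8.6e-18) and was lower in palmitate + IL-1β than in palmitate by a log2 difference of -0.37 (edgeR adjusted p = 0.00393). The phosphatase gene Ptpn1 rose by 0.63 with palmitate. Pias3 and Pias1, SUMO ligases that restrain STAT proteins, were the genes that fell, with values of -0.3 and -0.16, and Irf2bpl fell with IL-1β (-0.3, edgeR adjusted p = 5e-05).

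More target genes of these factors rose with palmitate than with IL-1β. All 24 tested ISGF3 targets rose with palmitate and 4 rose with IL-1β, with medians of 3.1 and 0.543. Oas2 and Oas3 had at most 3 counts in every BSA library, and with these genes at their lower bounds the medians were 2.88 and 0.362. All 27 tested interferon-γ and Irf1 targets rose with palmitate and 18 with IL-1β, with medians of 2.35 and 0.637, which stayed the same with Cxcl9 and Cxcl11 at their bounds. Over all genes the medians were -0.00303 and -0.00486. These lists were chosen with results of these libraries known, so their counts are a description. The shares called were 24 of 24 and 27 of 27 with palmitate, against the 19.8% of all genes named above, and 4 of 24 and 18 of 27 with IL-1β, against 10.1%. Whether the lists differed from each other in their response to IL-1β was not tested.

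Gbp2, a guanylate-binding protein and target of Irf1, went from 24.2 ± 1.23 to 60.7 ± 1.52 CPM with IL-1β (log2 1.33, SE 0.05, edgeR adjusted p = 1.9e-18) and to 426.0 ± 19.9 CPM with palmitate (log2 4.14, SE 0.06, edgeR adjusted p = 6.3e-32; SD, n = 4). Tapbp, which loads peptides on class I molecules, rose by 0.44 with IL-1β and 1.26 with palmitate. Among the ISGF3 targets, Dtx3l rose by 0.76 with IL-1β (SE 0.06, edgeR adjusted p = 2.4e-11) and 2.0 with palmitate (SE 0.06, edgeR adjusted p = 9.9e-23), and Herc6 by 0.46 and 2.52. Of the 27 interferon-γ and Irf1 targets, 12 had a called interaction, all lower, and Gbp2 (-1.18, edgeR adjusted p = 1.6e-13) and Tapbp (-0.41, edgeR adjusted p = 6.6e-05) were among them. Of the 24 ISGF3 targets 2 had a called interaction, both lower. Over all genes, 1.83% were called lower in the interaction and 0.159% higher, so most called genes shared the lower direction.

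**Figure D5:**
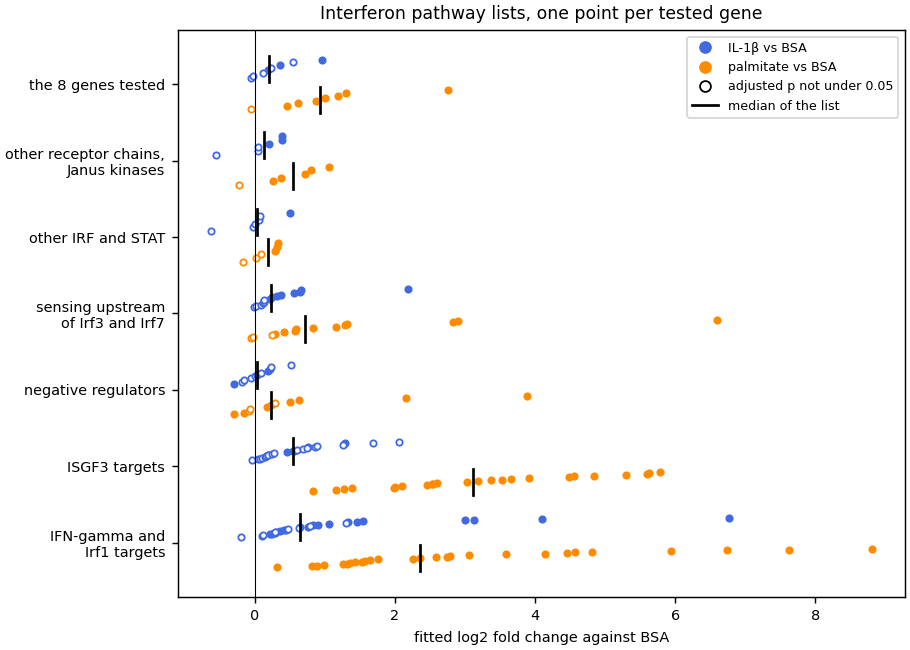
Fitted log2 fold change against BSA (horizontal axis) of the 8 tested members and of 6 lists of interferon pathway genes (vertical axis), with a point per gene for IL-1β and palmitate; open points missed an adjusted p under 0.05 and black bars mark medians. Palmitate moves all points of both target lists above 0, with medians of 3.1 and 2.35, and the farthest palmitate points, Cxcl9 and Cxcl11, are genes at the counting floor in BSA, whose fitted values are not bounds.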

How the data were processed

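Bulk RNA of 16 mGF libraries was analysed. The deposited values are raw counts per gene, which the authors made by trimming with Trimmomatic 0.39, aligning to GRCm39 with STAR 2.7.10a and counting by strand with HTSeq 2.0.9 (versions from the submitters' processing notes). The methods describe oligo(dT)-primed SMART-Seq libraries and the labels a stranded total RNA kit. The 5 summary rows (18.3% to 21.4% of each library) were left out of library sizes and tests, and multi-mapped reads were not counted.

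edgeR 4.0.16 (R 4.3.3, limma 3.58.1) was run with TMM, filterByExpr (minimum count 10, minimum total 15), robust glmQLFit and 1 mean per condition over 16 libraries. Alternatives were DESeq2 1.42.0, upper-quartile and unscaled sizes, other filters, dropping mitochondrial and ribosomal RNA genes, a fit of the 8 libraries compared, another prior count, and leaving out each library. Upper-quartile normalization moved the palmitate calls over all genes from 3228 higher and 2855 lower to 2402 and 4064. Scripts were tested on simulated counts. Replicate pairs (24) differed beyond sampling noise (chi-square per degree of freedom 2.66 to 19.8). Exon lengths and positions are from GENCODE vM39, and upstream sequences from RefSeq. Floors and intervals of counts cover counting error only.

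The members and lists were chosen with earlier results of these data known. From each list the text names the 2 called genes with the smallest p in each direction with palmitate and the 1 with IL-1β, and for each member the 3 most like genes (Pearson r of log2 CPM, prior count 2). Cxcl9, Cxcl11, Oas2, Oas3 and Ifnz were named after their values were seen. A gene of the pathway lists is not reported here.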

Additional observations from a re-analysis of the deposited data

Results flagged for a closer look

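In 36 groups of 4 libraries, 5 held a library that stood apart by Dixon's test at its 95% critical value, where chance gives about 1 in 20 groups. Ifnar2 was lowest in IL-1β replicate 5, at 6.92 CPM. Without that library the IL-1β difference of Ifnar2 was called, at 0.29 on the log2 scale (edgeR adjusted p = 0.0473). The same library was highest of its group for Irf3, at 17.6 CPM. Irf3 was lowest in BSA replicate 3, at 14.0 CPM. Irf2 was lowest in BSA replicate 4, at 20.3 CPM, and highest in palmitate + IL-1β replicate 16, at 32.9 CPM.

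The palmitate effect on Irf1 differed with and without IL-1β by a tested interaction of -0.78 on the log2 scale (edgeR adjusted p = 3.6e-09), and all 4 libraries with palmitate lay above all 4 without it in either background.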

How the results depend on the processing

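With palmitate, 7 members were called in each contrast against BSA or IL-1β under every alternative run, of 8 tested, or of 9 with no filter on low counts, where Irf8 entered uncalled. Of 328 values recomputed under other settings, 315 kept their direction and side of the threshold, and so did 870 of 896 values with a library left out. Members called higher in palmitate + IL-1β than in palmitate went from 1 to 0 with no filter on low counts, and ranged from 0 to 1 with a library left out. The interaction calls went from 1 to 2 with no filter, adding Ifngr1 (-0.3, edgeR adjusted p = 0.0178), and ranged from 1 to 2 with a library left out. With no filter, Irf2 lost its IL-1β call (0.17, edgeR adjusted p = 0.0996), and Irf7 gained one (0.53, edgeR adjusted p = 0.00396), as it did with only the 8 libraries compared (0.54, edgeR adjusted p = 0.0477). The cause was not tested. The values that changed sign were small and uncalled. Irf3 in palmitate + IL-1β against BSA was -0.0032 with DESeq2, -0.07 with upper-quartile normalization, -0.03 with no filter, -0.02 with at least 10 counts in every library, -0.01 without mitochondrial and ribosomal RNA genes, -0.0031 in the 8 libraries compared, and -0.07 to 0.03 with a library left out. With a library left out, Irf3 with IL-1β ranged from -0.1 to 0.0044 and the interaction of Irf9 from -0.05 to 0.11. The mean was highest in palmitate + IL-1β for 8 of the 9 genes and for 7 with upper-quartile or unscaled sizes, and 24 of 24 most like genes were shared with a prior count of 0.5. No paired analysis was possible because the replicate numbers run from 1 to 16 and no number occurs in 2 conditions. Irf8 and the ligands lie at the depth limit.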
